A study of Mus musculus with 16 samples.

Results

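The response of the mouse retina to optic nerve crush was measured in animals that received only the drug vehicle, by setting 3 crushed against 3 uncrushed retinas. These 6 RNA-seq libraries, taken by the crushed or uncrushed and control entries of their labels, are part of a series of 16. The other 10 libraries, 5 crushed and 5 uncrushed, come from mice given the dual leucine zipper kinase inhibitor GNE-3511 at 75 mg/kg at 60 h and 68 h after injury, and are used here only beside the vehicle values. All retinas were taken 3 days after the injury. The vehicle is given in the labels as MCT, and the vehicle reached both the crushed and the uncrushed group. The labels state 5 mice per drug, and vehicle retinas beyond these 6 were not analysed here. The labels give no strain, age or sex. Whether retinas come from the same animal is not stated either, so every p-value below measures only the spread between the samples in its fit.

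In optic nerve crush the axons of the ganglion cells, which link the eye with the brain, are damaged behind the globe. The cell bodies stay in the retina and pass through a programme of stress kinase signalling, transcription factor induction and loss of mature neuronal transcripts before many of them die. Müller glia, which span the retina, and microglia, its resident macrophages, react to that injury without being cut themselves. Photoreceptors, bipolar, amacrine and horizontal cells send no axon into the nerve.

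The 6 libraries held 22.35 to 38.63 M counted reads and 23939 to 24527 genes with at least 1 read. Rhodopsin took 3.078% to 3.655% of the reads, and each tested marker shared by ganglion cells, or of rod, cone, bipolar, amacrine, horizontal or Müller cells, had reads in all 6 samples. On the second principal component, which held 16.2% of the variance, uncrushed sample 1 lay at -53.31 and crushed sample 3 at -37.53, against -16.59 to 26.14 for the other 14 libraries. Uncrushed sample 1 also had the highest mitochondrial share of the 6, 4.487% against a lowest of 2.226%. Summed lens marker levels ran from 2.11 to 248.0 nRPKM in uncrushed and from 1.38 to 21.1 in crushed samples. Many of the list counts below are given with and without these libraries.

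Crush with vehicle changed the level of 510 of 19391 tested genes (edgeR quasi-likelihood test, Benjamini-Hochberg adjusted p of at most 0.05), which is 2.63%. Of these, 343 rose (1.77% of the genes tested) and 167 fell (0.861%). With neighbouring library numbers, whose meaning the labels do not give, as a replicate block, 1234 genes were called, 509 of these 510 among them. The increases had a median log2 change of 0.93 and the decreases one of -0.86, while the median over all tested genes was -0.003. At least 2-fold changes were found for 153 of the genes that rose and 63 of those that fell, and at least 4-fold changes for 59 and 20. A further 112 called genes changed by less than 1.5-fold. The crushed and uncrushed samples did not overlap for 342 of the 343 increases, where 8.27% of all tested genes had every crushed sample above every uncrushed one, and for 150 of the 167 decreases, against 4.65% in that direction. In RNA from whole retina, fewer cells of a type and less RNA per cell cannot be told apart.

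The size of a callable change depended on the level of the gene. Below 1 CPM (reads scaled to library size), 47 genes rose and 21 fell, with a median absolute log2 change of 2.49 among the called genes and a median standard error (SE) of 0.41 among all. At 100 CPM or more, 28 rose and 16 fell with a median absolute change of 0.51 and a median SE of 0.09. The very large changes therefore sit among genes of low or moderate level, and the changes of the abundant genes are small.

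**Figure D1:**
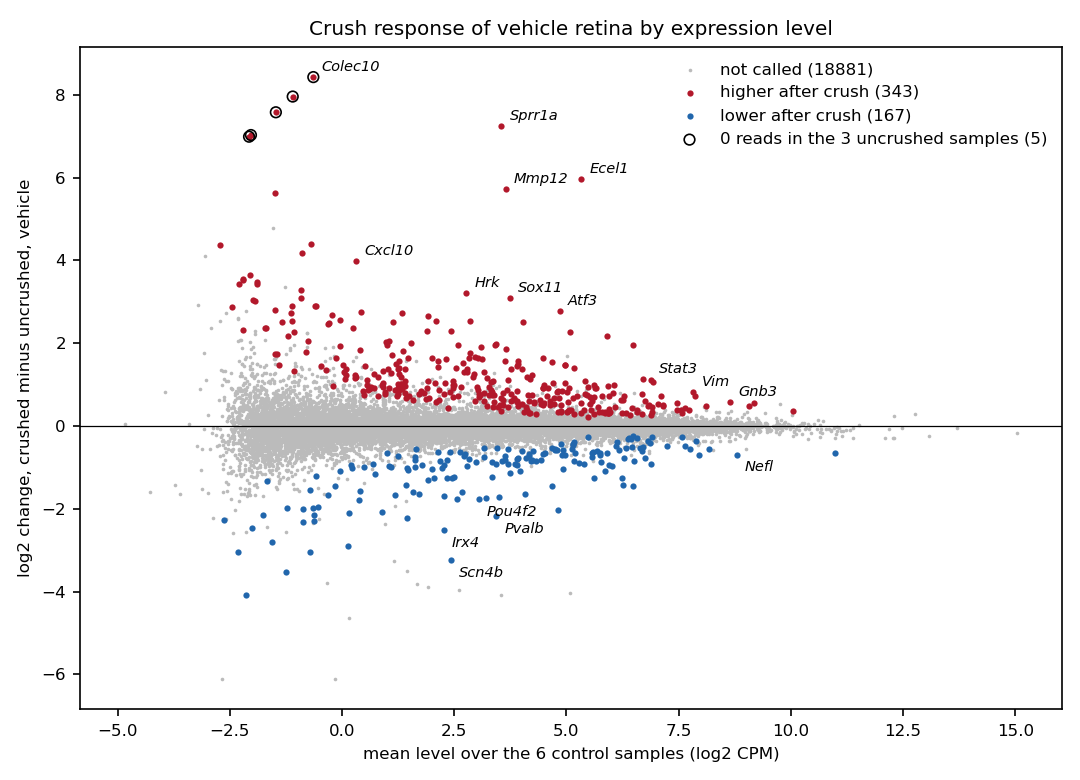
Log2 change of every tested gene (crushed minus uncrushed, vehicle, vertical axis) against its mean level over the 6 samples (log2 CPM, horizontal axis); red and blue points are the 343 genes that rose and the 167 that fell, grey points the rest. Ringed points are the 5 genes with 0 reads in all uncrushed samples, whose fitted change depends on a prior count; the called points narrow towards 0 as the level rises.

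Among genes of at least 1 CPM the largest increases were those of Sprr1a, Ecel1 and Mmp12. All levels below are nRPKM, the authors' RPKM values (read counts per gene length and library size) scaled by a factor per library. Sprr1a, a small proline-rich protein that neurons make after axon injury (Entrez 20753, GRCm38 chromosome 3, 92483954 to 92485881), stood at 0.341, 0.111 and 0.0931 in uncrushed samples 1 to 3 and at 29.5, 21.2 and 23.9 in crushed samples 1 to 3, a log2 change of 7.25 ± 0.39 (SE; adjusted p = 3e-09). Mmp12, the macrophage elastase (Entrez 17381, chromosome 9, 7344397 to 7360461), stood at 0.136, 0.131 and 0.0599 in uncrushed and at 5.98, 4.91 and 6.11 in crushed samples, a log2 change of 5.72 ± 0.26 (adjusted p = 2.67e-10). For Ecel1, a neuronal endopeptidase (Entrez 13599), the values were 0.104, 0.162 and 0.199 against 12.3, 6.43 and 11.5, with the lowest crushed value in sample 2. None of the 3 genes had overlapping groups, and the lowest crushed value of each lay far above the highest uncrushed one.

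Cxcl10, a chemokine induced by interferons (Entrez 15945), varied most among these leading genes, at 2.81, 1.79 and 0.843 in crushed samples 1 to 3 against 0.0698, 0.14 and 0.111 in uncrushed ones (log2 change 3.99 ± 0.52, adjusted p = 0.000196). The activator of cell death Hrk, a BH3-only protein, was tightly grouped by contrast, at 0.201, 0.225 and 0.201 against 2.15, 1.81 and 1.88 (3.21 ± 0.15, adjusted p = 2.67e-10). Lad1, a basement membrane anchor protein first known from skin, lay at 0.527, 0.639 and 0.598 against 3.54, 3.38 and 3.50 (2.55 ± 0.28). Avil, encoding advillin, an actin-bundling protein of sensory neurons, lay at 0.304, 0.279 and 0.194 against 1.56, 1.24 and 1.64 (2.53 ± 0.19). Tnfrsf12a, the receptor Fn14 of the cytokine TWEAK, was the most abundant of the 15 largest increases in crushed retina together with Sprr1a and Atf3, at 22.2, 24.7 and 26.6 against 4.02, 4.69 and 4.14 (2.51 ± 0.20, adjusted p = 6.87e-07). Prss12, the secreted protease neurotrypsin (2.36 ± 0.27), and Ptgfr, the receptor of prostaglandin F2 alpha (2.75 ± 0.53, adjusted p = 0.00633), were higher in each crushed sample than in any uncrushed one. The call of Ptgfr was lost without uncrushed sample 1 and crushed sample 3 together (adjusted p = 0.0713).

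**Figure D2:**
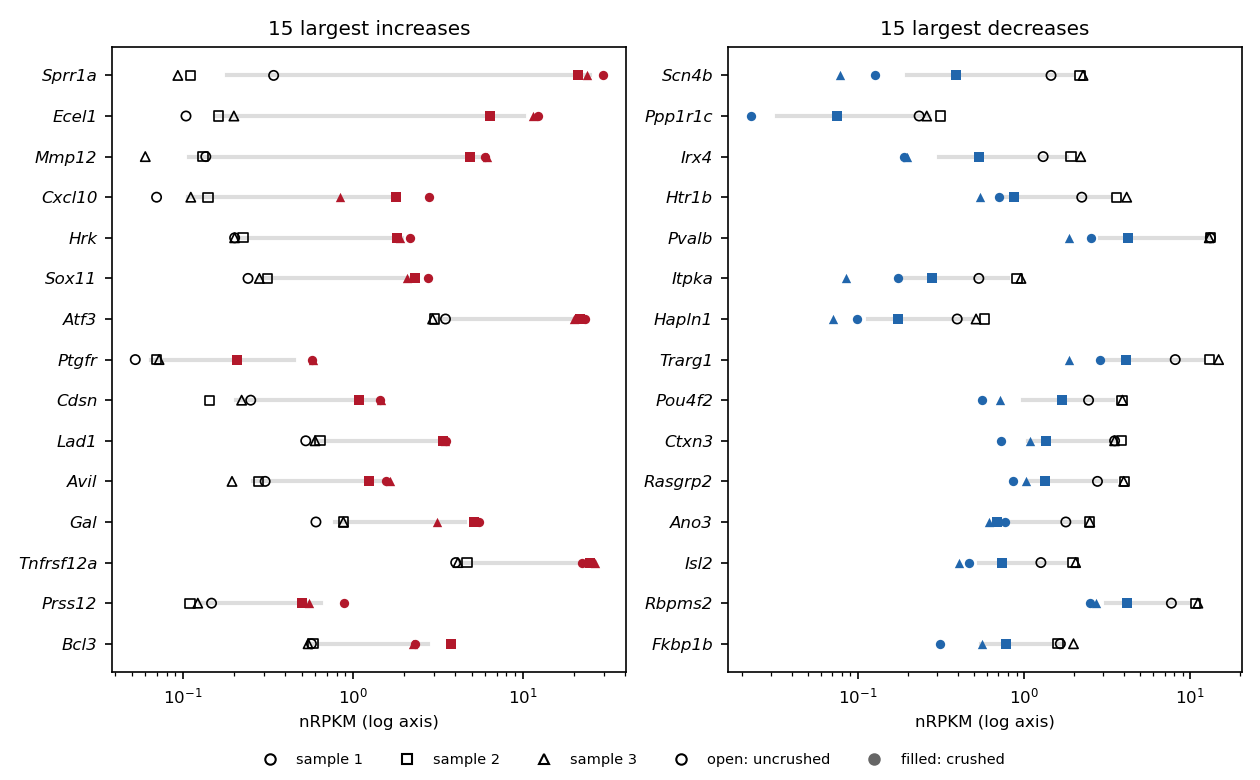
Level in nRPKM (log axis) of the 15 genes with the largest increases and the 15 with the largest decreases among called genes of at least 1 CPM; open symbols are uncrushed and filled symbols crushed vehicle samples, with 1 shape per sample, and grey bars join the group means. One value of 0, for Ppp1r1c in crushed sample 3, cannot be drawn on the log axis; in all 30 genes the open and filled symbols do not overlap.

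The sequence before the start site is shown for 6 of the 15 genes with the largest increases, those in which a motif of an injury-associated factor was found there besides Cdsn. Each line gives the 250 bases before a RefSeq start site (GRCm38.p6), 5′ to 3′ on the strand of the gene, with capitals marking matches on either strand to TGANTCA (AP-1, the Jun and Fos family motif), TGATGNAA (a composite ATF4-CEBP motif), GAAANNGAA (ISRE, the interferon response element) or the TATA box, read as TATAAA. TGACGTCA (CRE) and TTCNNNGAA (STAT) were searched too. Sprr1a lies at chr3:92485882-92486131 (minus strand), Mmp12, at its second start, at chr9:7347124-7347373 (plus), Cxcl10 at chr5:92348890-92349139 (minus), Hrk at chr5:118169514-118169763 (plus), Atf3 at chr1:191183334-191183583 (minus) and Avil at chr10:127000459-127000708 (plus).
Sprr1a: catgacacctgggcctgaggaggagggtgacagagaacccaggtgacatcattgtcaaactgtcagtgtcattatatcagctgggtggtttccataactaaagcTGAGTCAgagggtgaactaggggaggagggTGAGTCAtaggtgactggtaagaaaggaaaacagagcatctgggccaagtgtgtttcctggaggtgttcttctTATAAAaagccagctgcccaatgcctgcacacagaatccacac
Mmp12: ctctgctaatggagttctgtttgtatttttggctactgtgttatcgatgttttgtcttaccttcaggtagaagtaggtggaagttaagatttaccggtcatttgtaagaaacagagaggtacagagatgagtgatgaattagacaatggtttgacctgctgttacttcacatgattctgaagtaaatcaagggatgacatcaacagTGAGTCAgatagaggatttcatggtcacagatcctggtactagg
Cxcl10: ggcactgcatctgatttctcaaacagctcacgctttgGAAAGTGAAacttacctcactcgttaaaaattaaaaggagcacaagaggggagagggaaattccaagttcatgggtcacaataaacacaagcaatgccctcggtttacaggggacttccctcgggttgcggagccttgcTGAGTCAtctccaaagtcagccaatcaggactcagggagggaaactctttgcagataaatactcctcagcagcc
Hrk: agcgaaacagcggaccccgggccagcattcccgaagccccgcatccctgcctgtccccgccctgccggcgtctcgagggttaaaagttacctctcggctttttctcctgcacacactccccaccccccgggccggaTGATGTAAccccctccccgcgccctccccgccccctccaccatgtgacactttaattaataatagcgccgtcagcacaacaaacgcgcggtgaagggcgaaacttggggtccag
Atf3: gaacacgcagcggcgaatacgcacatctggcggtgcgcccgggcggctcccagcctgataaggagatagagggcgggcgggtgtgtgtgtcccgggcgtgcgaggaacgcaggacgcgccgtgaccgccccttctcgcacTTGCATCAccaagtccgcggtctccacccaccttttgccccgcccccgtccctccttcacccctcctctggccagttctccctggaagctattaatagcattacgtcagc
Avil: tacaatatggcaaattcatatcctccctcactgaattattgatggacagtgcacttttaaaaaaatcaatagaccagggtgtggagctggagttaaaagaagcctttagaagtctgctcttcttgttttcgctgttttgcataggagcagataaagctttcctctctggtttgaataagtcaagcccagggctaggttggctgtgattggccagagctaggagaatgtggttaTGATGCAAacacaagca

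The AP-1 letters TGAGTCA occur in Sprr1a with their first bases 146 and 116 bases before the start, in Mmp12 at 44 bases and in Cxcl10 at 74 bases, where ISRE letters lie at 213 bases. The ATF4-CEBP letters occur in Hrk, Atf3 and Avil at 114, 110 and 17 bases. In windows of 300 bases (250 before and 50 after the start), the AP-1 motif was in 39 of 326 promoters of genes that rose (12%, Wilson 95% interval 8.88% to 15.9%), in 8.75% of 160 promoters of genes that fell and in 5.52% of 17416 promoters of all tested genes. The ATF4-CEBP motif was in 6.13%, 1.88% and 2.51% of the same promoters, the STAT motif in 11%, 9.38% and 6.93%, the CRE motif in 2.76%, 1.88% and 2.65%, the ISRE motif in 5.52%, 7.5% and 7.11% and the TATA box in 9.82%, 7.5% and 8.16%. A gene can have several promoters in the table, so these shares are over promoters and not over independent genes. A match describes letters and not a bound site, and no match was found for Ecel1, Sox11, Ptgfr, Lad1, Gal, Tnfrsf12a, Prss12 or Bcl3 in these windows.

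A small set of genes went from no or almost no reads to detectable levels. With 0 reads in all 3 uncrushed samples, Colec10, a collectin of innate immunity, had 55, 25 and 34 reads in crushed samples 1 to 3, at least 39.5-fold higher when 3 reads over the uncrushed group are taken as the floor. Hoxb9, a homeobox gene of the trunk and spinal cord, had 29, 21 and 32 reads, at least 28.4-fold higher, and Hmx3, a homeobox gene of the inner ear and hypothalamus, had 19, 9 and 14, at least 14.6-fold higher. Nts, encoding the neuropeptide neurotensin, had 13, 12 and 18 reads (at least 14.9-fold higher), and the long noncoding RNA Gm38403 had 18, 18 and 27 (at least 21.8-fold higher). The separate inhibitor retinas gave 0, 2, 1, 1 and 5 reads over 5 uncrushed samples for Colec10, Hoxb9, Hmx3, Nts and Gm38403, and 204, 113, 22, 36 and 120 over 5 crushed ones. A gene of this kind passes the filter on low counts only through crushed samples.

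Another 6 called genes had 1 to 3 reads over the uncrushed vehicle samples. Sprr2g, a neighbour and relative of Sprr1a that RefSeq lists as a transcribed pseudogene, had 1 read against 66, a ratio of 68.6 (exact 95% counting interval 11.9 to 2750.0). Itgad, the integrin alpha D of macrophages, had 1 against 26 (ratio 27.0, interval 4.44 to 1110.0). The chemokine gene Ccl2, which attracts monocytes, had 3 against 37 (ratio 12.8, interval 4.06 to 65.0), as did Xirp1, an actin-binding protein of heart and skeletal muscle. These intervals cover counting error only, and the genes were chosen for few uncrushed reads and a called rise. Ratios and intervals are not independent of that choice. In the opposite direction the noncoding RNA Gm38484 had 39 reads in uncrushed and 2 in crushed samples (ratio 18.8, interval 4.86 to 160.0). Bpifc and Gm30874 complete the 6, at 3 reads against 40 and 35. Over 5 uncrushed inhibitor retinas Sprr2g, Itgad, Ccl2, Xirp1, Bpifc and Gm30874 had 1, 9, 5, 15, 25 and 6 reads. Over 5 crushed ones they had 8, 55, 32, 30, 21 and 54. The crush effect with the inhibitor was not called for Sprr2g (adjusted p = 0.186), Xirp1 (0.246) or Bpifc (0.963). The test of the difference between the vehicle and inhibitor crush effects, given below, called none of these genes. For Sprr2g that difference was 3.18 ± 2.34 on the log2 scale.

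**Figure D3:**
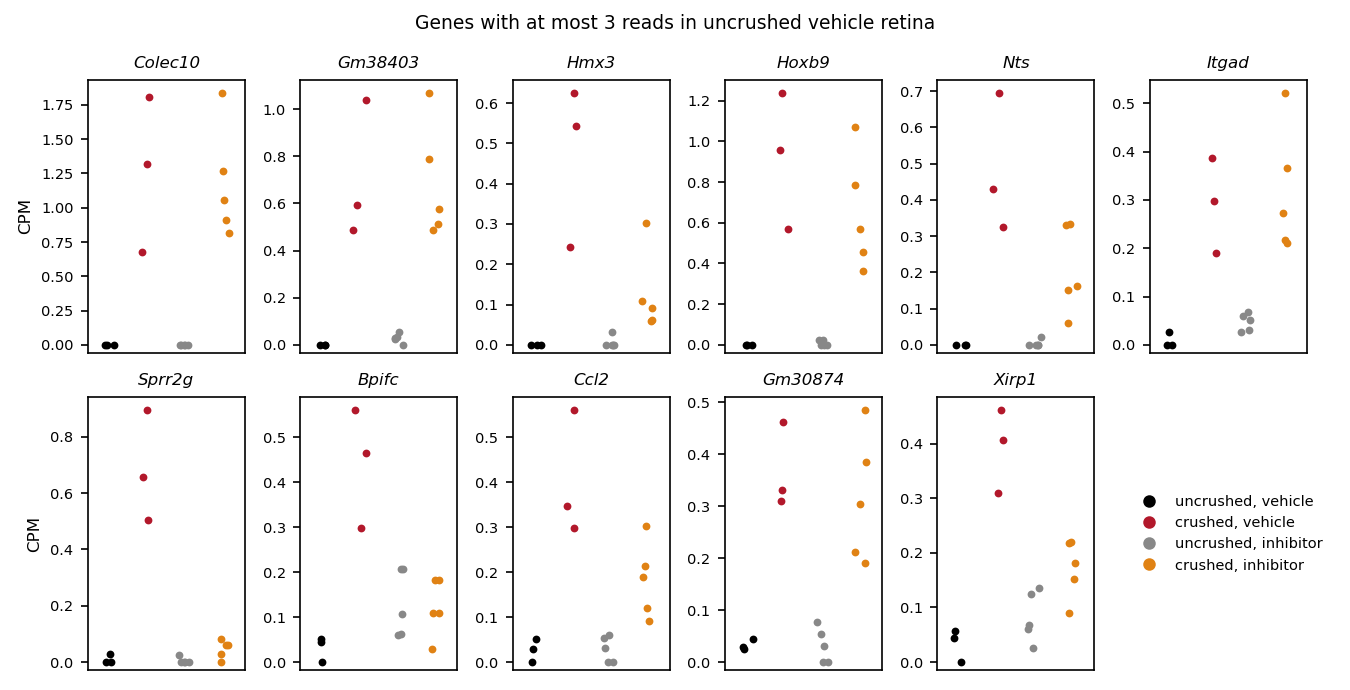
CPM of the 11 genes that rose with vehicle from at most 3 reads over the uncrushed vehicle samples, 1 panel per gene, with 1 point per library for the 3 uncrushed and 3 crushed vehicle and the 5 uncrushed and 5 crushed inhibitor retinas. In each panel the 3 crushed vehicle points lie above the 3 uncrushed ones, which follows largely from how the genes were chosen.

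Of 38 transcription factors listed for the injury response, 15 rose, none fell and 23 were not called, with a median log2 change of 0.37. The number that rose was 12 without uncrushed sample 1 and 11 without it and crushed sample 3. Sox11, which is active in growing neurons, moved from 0.241, 0.315 and 0.281 to 2.77, 2.31 and 2.09 nRPKM (3.09 ± 0.23, adjusted p = 4.65e-07), and Atf3, an early marker of axon damage, from 3.50, 3.03 and 2.94 to 23.1, 21.6 and 20 (2.78 ± 0.21). Egr2 ranked between them at a far lower level, with a mean of 0.02 in uncrushed and 0.137 in crushed samples (2.81 ± 0.50, adjusted p = 0.00331). Lower in the order came, among others, Cebpd (1.54 ± 0.25), Arid5a, an RNA-binding factor that stabilises inflammatory transcripts (1.5 ± 0.16), and Runx1 (1.32 ± 0.26). Myc (1.18 ± 0.21), Stat3 (1.12 ± 0.11), Junb (0.98 ± 0.21) and Klf6 (0.68 ± 0.12) rose less. Fos family members Fosb (1.03 ± 0.17) and Fosl2 (0.80 ± 0.17) rose with Jun (0.97 ± 0.17), whose levels of 8.89, 11.6 and 12.5 became 22.1, 24.3 and 18.4. For none of these 3 did the crushed and uncrushed groups overlap.

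Of 32 axon outgrowth genes, 9 rose and none fell (median 0.33). Without uncrushed sample 1, alone or together with crushed sample 3, 7 were called higher and 2 lower. Stmn4, a tubulin-binding stathmin, went from 8.35, 11.4 and 12.7 to 26.3, 35.3 and 24.0 nRPKM (1.4 ± 0.18, adjusted p = 0.000139). Gap43, a membrane protein of growth cones, was close between samples of a group, at 20.1, 20.3 and 21.4 against 36, 35.1 and 34.1 (0.77 ± 0.13). The tubulins Tubb6 (0.94 ± 0.15) and Tubb2b (0.86 ± 0.20) and the hyaluronan receptor Cd44 (1.14 ± 0.24) also rose. Some genes of axon structure went the other way. Of 28 genes of the axon cytoskeleton and transport 4 fell, 24 were not called and none rose (median -0.16). The 4 were the neurofilament genes Nefl and Nefh, Tuba4a (-0.51 ± 0.10) and Tppp3. Of these, Nefl, Nefh and Tppp3 are also counted among the ganglion cell markers below. The number of axon genes that fell became 9 without uncrushed sample 1 and 8 without it and crushed sample 3.

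Secreted neuronal messengers rose in part. Of 26 neuropeptide and secretory granule genes 7 rose and none fell, against a list median of 0.07. Gal, encoding galanin, was at 0.605, 0.881 and 0.877 against 5.48, 5.16 and 3.13 nRPKM (2.51 ± 0.32, adjusted p = 0.000171), Crh, corticotropin-releasing hormone, at 0.786, 0.733 and 0.687 against 3.03, 2.61 and 2.03 (1.81 ± 0.24) and Vgf, a granin-like precursor, at 10.3, 18.5 and 19.0 against 40.5, 36.7 and 28.5 (1.14 ± 0.17). Calca, the gene of calcitonin and its related peptide (1.38 ± 0.30), Ucn (1.78 ± 0.46, adjusted p = 0.05), Nts and Adcyap1 complete the 7. Other members were not called. The groups overlapped for Npy, at 9.91 to 13.1 against 9.76 to 14.3 (0.16 ± 0.17, adjusted p = 0.924) and Cartpt at 59.8 to 90.0 against 57.7 to 95.0 (-0.08 ± 0.17, adjusted p = 0.98). Tac1, the substance P precursor, was higher in every crushed than in any uncrushed sample without passing the test (0.47 ± 0.14, adjusted p = 0.0924).

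Cytokine and growth factor genes that rose included members of the gp130 pathway. Of 42 growth factor, cytokine and receptor genes 9 rose and 1 fell (median 0.21). Lif, a ligand of gp130, was at 0.0522, 0.149 and 0.085 against 0.475, 0.251 and 0.495 nRPKM (2.02 ± 0.32, adjusted p = 0.00151). The receptor genes Osmr (1.19 ± 0.21) and Il6st, gp130 itself (0.50 ± 0.13, adjusted p = 0.0468), and the feedback inhibitor Socs3 (1.30 ± 0.24) rose with it. Csf1, the growth factor of microglia, was at 0.972, 1.35 and 1.49 against 2.58, 2.38 and 2.45 (0.95 ± 0.17), and Gdf15, a stress-induced cytokine, rose by 1.16 ± 0.27. The 1 member that fell was Fgf1, at 8.24, 10.3 and 10.8 against 6.35, 7.43 and 5.27 (-0.62 ± 0.12), while Fgf2 rose (1.76 ± 0.23). In a fit of the 6 samples alone no member, Fgf1 included, was called lower.

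Death and stress genes changed in both senses. Of 25 death and survival genes 5 rose, Hrk, Cdkn1a (1.87 ± 0.16), Gadd45b (1.06 ± 0.23), Bbc3 (0.93 ± 0.16) and Bcl2l11 (0.53 ± 0.12), and 1 fell, the survival gene Bcl2, at 3.83, 3.12 and 2.99 against 2.18, 2.27 and 2.39 nRPKM (-0.53 ± 0.10, adjusted p = 0.00452). In a fit of the 6 samples alone the call of Bbc3 was lost (adjusted p of 0.0702), and no gene of the list, Bcl2 included, was called lower. Of 27 genes of the integrated stress response and amino acid supply 15 rose and none fell (median 0.59). The number that rose was 9 in a fit of the 6 samples alone and 12 to 17 with 1 sample left out. Besides the stress factors, this list holds enzymes of serine, one-carbon and proline synthesis: Phgdh, the first enzyme of serine synthesis, was at 0.575, 0.717 and 0.498 against 1.41, 1.67 and 1.67 (1.4 ± 0.19, adjusted p = 0.000339), Aldh18a1, of proline synthesis, at 8.23, 9.11 and 8.15 against 14.4, 13.6 and 13 (0.69 ± 0.10), and Pycr1 (0.88 ± 0.18), Mthfd2 (0.66 ± 0.12) and Shmt2 (0.40 ± 0.07) rose too. Amino acid transporters Slc7a3 (0.86 ± 0.16), Slc7a1 (0.61 ± 0.11), Slc1a4 (0.59 ± 0.15) and Slc7a5 (0.51 ± 0.10) were the other group in it. Of 20 chaperones 2 rose (Bag3 and Hspb8, median 0.11), where 1.77% of all tested genes rose. Both calls were lost without crushed sample 1 (adjusted p of 0.0541 for Hspb8 and 0.063 for Bag3). That of Hspb8 was also lost without crushed sample 2 or 3 or uncrushed sample 2 or 3 (up to 0.0868). Of 19 members of the DLK-JNK cascade and its phosphatases only Dusp8 rose (0.40 ± 0.08), a call lost without crushed sample 1 (adjusted p of 0.0747) and in a fit of the 6 samples alone (0.157).

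Some genes best known from other organs rose in the crushed retina. The genes of this paragraph were picked after their values were seen, so their counts support nothing. Genes of the epidermal barrier that rose were Sprr1a, Sprr2g, Cdsn, the corneodesmosome protein (0.25, 0.143 and 0.221 against 1.45, 1.08 and 1.47 nRPKM, 2.73 ± 0.25), Lad1, Gsdma (2.32 ± 0.52), Abca12, a lipid transporter (1.73 ± 0.40), and Aloxe3 (0.65 ± 0.12). None of 6 keratin genes of skin and cornea (Krt1, Krt5, Krt10, Krt12, Krt14, Krt15) was called, and their summed level was 5.33 to 7.15 in uncrushed and 5.07 to 6.72 in crushed samples. Muscle proteins that rose were Tnnt2, cardiac troponin T (0.488, 0.823 and 0.744 against 2.52, 3.04 and 2.88; 2.01 ± 0.22), Cox6a2, a heart and muscle subunit of cytochrome oxidase (0.233, 0.4 and 0.409 against 2.07, 2.2 and 2.21; 2.57 ± 0.31), Flnc, filamin C (1.62 ± 0.24), and Xirp1. Of 4 tested skeletal muscle markers none was called, and the summed level of the list was 5.46 to 5.60 against 4.97 to 6.32.

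Of 24 tested markers shared by ganglion cells, 13 fell and none rose, with a median log2 change of -0.67. The number that fell was 8 in a fit of the 6 samples alone and 12 to 16 with 1 sample left out. The levels of the transcription factor Pou4f2 (Brn3b) were 2.44, 3.88 and 3.90 in uncrushed and 0.556, 1.68 and 0.712 nRPKM in crushed samples (-1.77 ± 0.29, adjusted p = 0.00168), and those of Pou4f1 (Brn3a) 4.40, 7.39 and 7.23 against 2.42, 3.17 and 1.35 (-1.45 ± 0.24). Nefl, the light neurofilament subunit and the most abundant of the markers that fell, was at 207.0, 253.0 and 237.0 against 154.0, 154.0 and 123.0 (-0.69 ± 0.13). The RNA-binding protein gene Rbpms was at 3.86, 5.60 and 6.32 against 2.19, 3.27 and 2.19 (-1.04 ± 0.17). All these groups stayed apart, and uncrushed sample 1 was the lowest of its group in each. The call of Pou4f2 was lost in a fit of the 6 samples alone (adjusted p = 0.067). Annotated exons of Nefm overlap 32.8% of the exon length of Nefl, and Nefm itself was not called (-0.34 ± 0.18, adjusted p = 0.581).

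Other markers of that list were not called. They include Gngt2, which is also listed as a cone marker and so is not particular to ganglion cells (-0.18 ± 0.15, adjusted p = 0.855). Slc17a6, the vesicular glutamate transporter of ganglion cells, was at 10.2, 14.9 and 16.8 in uncrushed and 16.8, 17.2 and 9.94 in crushed samples (0.07 ± 0.22, adjusted p = 0.988). Thy1, a surface protein long used to count these cells, was at 59.5, 97.9 and 108.0 against 68.4, 81.7 and 53.2 nRPKM (-0.39 ± 0.17, adjusted p = 0.425). For both genes the groups overlapped. A p above the threshold does not show that their levels were equal.

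Markers of ganglion cell types split. Of 38 tested, 3 rose and 4 fell (median -0.08). Irx4, a homeobox factor of a subset of these cells, was at 1.30, 1.91 and 2.19 against 0.189, 0.535 and 0.196 nRPKM (-2.52 ± 0.31, adjusted p = 0.00012), and Tbx20 (-1.07 ± 0.25) and Prlr (-1.46 ± 0.34) were among the others that fell. Cdk15 was higher, at 0.355, 0.539 and 0.532 against 1.28, 1.61 and 1.38 (1.56 ± 0.20, adjusted p = 0.000136), as was Spp1, osteopontin, at 10.5, 10.4 and 10.9 against 18.8, 25 and 20.8 (1.03 ± 0.12). Nts was the third. Spp1 is also a phagocyte gene, and its source cannot be told from whole retina. Of markers of the intrinsically photosensitive ganglion cells, Tbx20 is the 1 named above that fell, with its groups apart. The groups overlapped for Opn4, melanopsin, at 1.27 to 2.02 against 0.936 to 1.72 (-0.49 ± 0.21, adjusted p = 0.373) and Eomes at 1.42 to 2.59 against 1.37 to 1.99 (-0.29 ± 0.20, adjusted p = 0.788). The number that fell was 1 without crushed sample 1 or 3 or uncrushed sample 2 or 3, and 7 without crushed sample 2.

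Among genes of at least 1 CPM the largest decreases were those of Scn4b, Ppp1r1c and Irx4. Scn4b, a sodium channel beta subunit that supports fast repeated firing (Entrez 399548, chromosome 9, 45138624 to 45154155), was at 1.45, 2.17 and 2.26 against 0.127, 0.386 and 0.0781 nRPKM (-3.24 ± 0.34, adjusted p = 2.29e-05). Pvalb, encoding the calcium buffer parvalbumin (Entrez 19293), was at 13.2, 13.2 and 13 against 2.53, 4.22 and 1.86 (-2.17 ± 0.20). Trarg1, a trafficking regulator of glucose transporter vesicles (Entrez 237858), was at 8.11, 13 and 14.8 against 2.85, 4.09 and 1.87 (-2.02 ± 0.23, adjusted p = 4.89e-05). Crushed sample 2 kept the highest level of the 3 crushed samples in all of these. Hapln1, a link protein of perineuronal nets (-2.08 ± 0.29), Itpka, a kinase of inositol trisphosphate (-2.11 ± 0.33), Rasgrp2, an activator of Rap (2.76, 4.02 and 3.97 against 0.858, 1.34 and 1.03; -1.73 ± 0.15), Ano3, an anoctamin membrane protein (1.78, 2.46 and 2.48 against 0.763, 0.683 and 0.611; -1.71 ± 0.16), Ctxn3 (-1.77 ± 0.20) and Fkbp1b, a subunit of ryanodine receptor complexes (-1.65 ± 0.24), followed. Ppp1r1c (-2.90 ± 0.45) was not called in a fit of the 6 samples alone (adjusted p = 0.0597).

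Some channel, receptor and release genes fell, at a higher share in each list than the 0.861% of all tested genes. Of 26 sodium and calcium channel genes 2 fell (Scn4b and Scn1a, median -0.12), of 30 potassium and HCN channel genes 4 (among them Kcnd2, Kcnip4 and Kcnip2, median -0.12), of 38 neurotransmitter receptor genes 4 (Chrna6, Chrnb3, Htr1b and Htr1d, median -0.13) and of 28 synaptic vesicle genes 2 (Vamp1 and Cplx1, median -0.03), and none rose. Htr1b and Htr1d both encode inhibitory serotonin receptors and lay at 2.22, 3.6 and 4.14 against 0.708, 0.868 and 0.542 nRPKM (-2.22 ± 0.39) and at 1.02, 1.76 and 1.79 against 0.882, 0.868 and 0.637 (-0.94 ± 0.19). Vamp1, a vesicle fusion protein, was at 25.6, 30.6 and 30.0 against 10.1, 13.6 and 12.2 (-1.26 ± 0.12, adjusted p = 6.7e-06). Kcnd2 and its partner Kcnip4, which form A-type potassium channels, fell by 1.23 and 0.92 on the log2 scale. Of 18 calcium buffers and synucleins 6 fell (median -0.38), among them Sncg (-1.09 ± 0.16), Vsnl1 (-0.85 ± 0.16) and Calb2, calretinin, whose groups overlapped at 132.0, 197.0 and 217.0 against 106.0, 138.0 and 92.1 (-0.70 ± 0.16, adjusted p = 0.0252). Kcnd2, Chrna6, Chrnb3 and Sncg are also counted among the ganglion cell markers, so these lists are not separate evidence. None of 40 cell adhesion and guidance genes was called (median -0.02).

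These counts rested in part on uncrushed sample 1. Without it, 5 sodium and calcium channel, 7 potassium channel, 6 synaptic vesicle and 10 calcium buffer and synuclein genes fell, and 16 ganglion cell markers. Without uncrushed sample 2 the sodium and calcium channel count was 1, and without crushed sample 1 or uncrushed sample 2 or 3 the potassium channel count was 2. The call of Scn1a was lost without uncrushed sample 2 (adjusted p of 0.0502), that of Kcnip2 without crushed sample 1 or uncrushed sample 2 or 3 (up to 0.0692) and that of Calb2 without crushed sample 1 or 3 or uncrushed sample 2 or 3 (up to 0.143). In a fit of the 6 samples alone these 3 genes had adjusted p-values of 0.0607, 0.186 and 0.207, and Chrnb3 (0.0638) and Cplx1 (0.0631) were not called.

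Markers of other retinal neurons were nearly all uncalled. None of 14 bipolar, 14 amacrine and 8 horizontal cell markers passed, with the smallest adjusted p at 0.273 for Isl1 (-0.19 ± 0.07), 0.644 for Pax6 (-0.17 ± 0.09) and 0.0566 for Calb1 (-0.40 ± 0.11). One of 16 rod markers fell, Pdc, the most abundant gene that was called, at 1720.0, 1250.0 and 1500.0 against 707.0, 1060.0 and 1110.0 nRPKM (-0.64 ± 0.16, adjusted p = 0.0369). That call was lost without crushed sample 1 or uncrushed sample 1 or 3 (adjusted p up to 0.166) and in a fit of the 6 samples alone (0.247). Among 12 cone markers Gnb3, a transducin beta subunit, rose, at 147.0, 151.0 and 143.0 against 206.0, 234.0 and 219.0 (0.58 ± 0.08, adjusted p = 0.000248). Of the 12, 8 were negative (median -0.16), and Opn1mw, Gnat2, Pde6c, Pde6h and Cngb3 were lower in every crushed than in any uncrushed sample without passing the test (-0.32 to -0.14). Other abundant genes that rose were Ptp4a3, a phosphatase, at 68.6, 65.0 and 67.8 against 97.7, 91.4 and 108.0 (0.56 ± 0.09), the hexokinase gene Hk1 (0.37 ± 0.08), whose call was lost without crushed sample 2 or uncrushed sample 2 (adjusted p up to 0.105), and Impg2, a proteoglycan of the photoreceptor matrix (0.48 ± 0.12), whose call was lost without crushed sample 1 or 2 or uncrushed sample 2 or 3 (up to 0.177). Fam3c, a secreted protein gene that fell (-0.36 ± 0.08), lost its call without crushed sample 1 or uncrushed sample 1 (up to 0.0821).

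**Figure D4:**
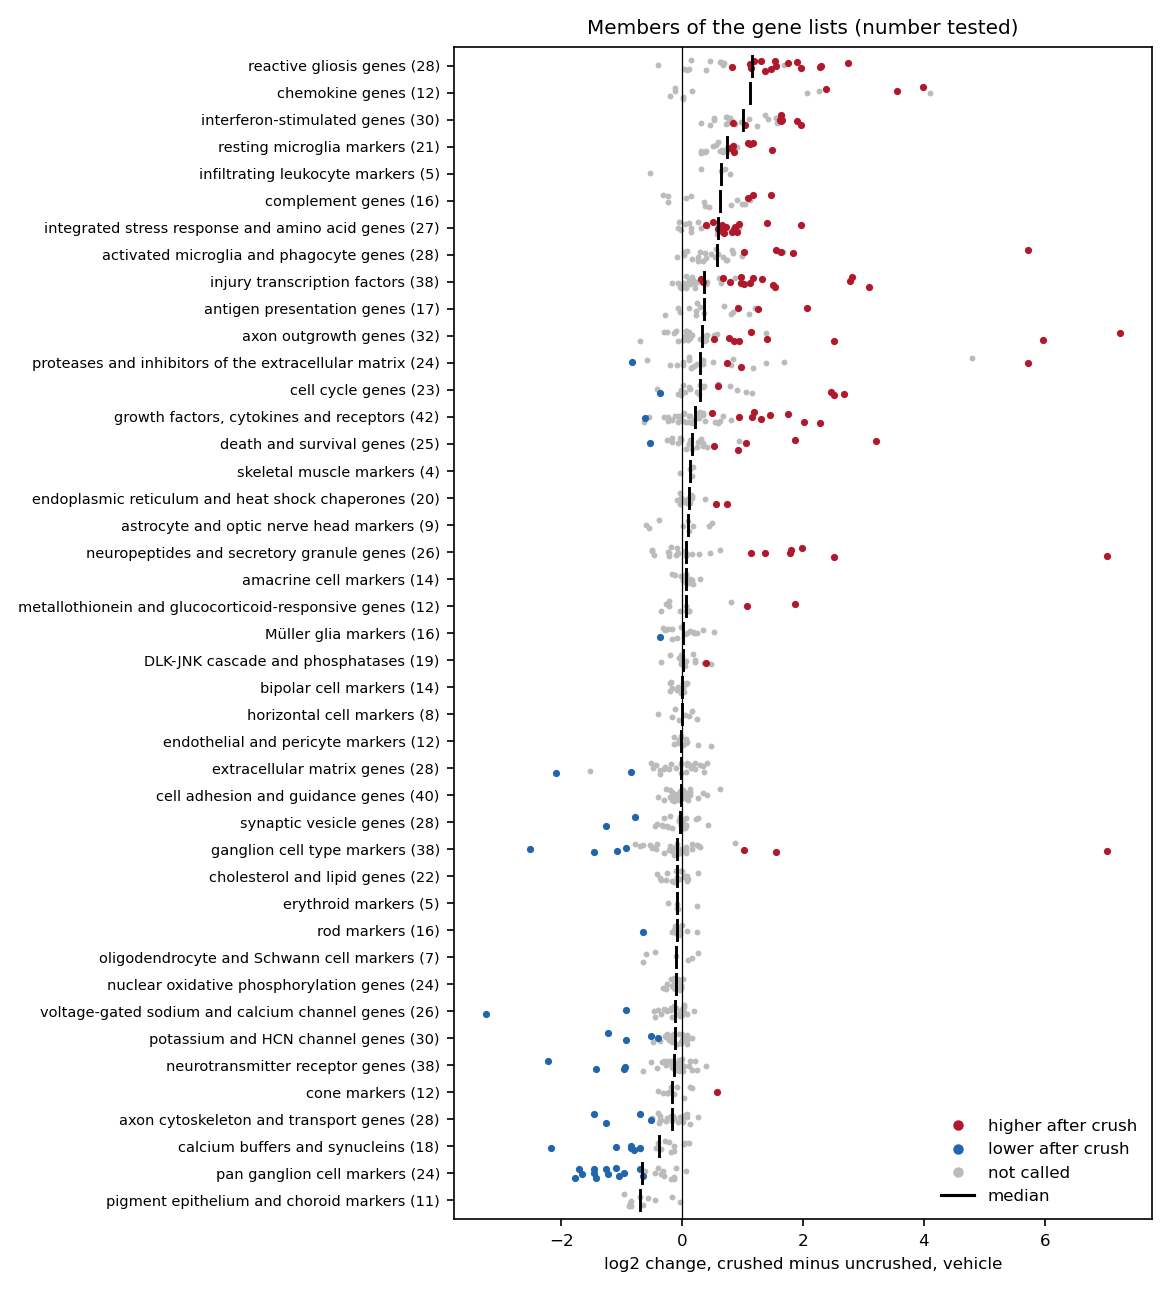
Log2 change (crushed minus uncrushed, vehicle) of each tested member of 43 gene lists, ordered by their medians (black bars); red points rose, blue points fell and grey points were not called. Gliosis, interferon and stress response genes lie to the right, ganglion cell markers to the left, and markers of bipolar, amacrine and horizontal cells around 0; the lens list, at a median of -2.57 with no call, is left out to keep the scale.

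Of 28 reactive gliosis genes, 15 rose and none fell, with a median log2 change of 1.16. Gfap, the intermediate filament of reactive Müller cells and astrocytes, was at 6.0, 8.28 and 5.66 against 25.5, 23.3 and 29.2 nRPKM (1.97 ± 0.31, adjusted p = 0.00126), and Vim, vimentin, at 64.8, 80.4 and 83.9 against 142.0, 128.0 and 133.0 (0.82 ± 0.16). Nes, nestin, was at 0.948, 1.27 and 0.944 against 4.01, 1.89 and 3.48 (1.56 ± 0.29), with crushed sample 2 nearest to the uncrushed samples. Bcl3, a nuclear partner of NF-kappaB, was at 0.569, 0.581 and 0.544 against 2.32, 3.77 and 2.24 (2.30 ± 0.38), and Cebpd, Socs3, Osmr and Edn2 rose as well. The acute phase gene Lcn2 was not called, at 6.35, 5.31 and 7.87 against 6.55, 16.3 and 7.23 (0.63 ± 0.41, adjusted p = 0.745), where sample 2 alone was high. Without uncrushed sample 1 and crushed sample 3 together, 9 of the 15 were still called and Vim was not (adjusted p = 0.0684). Of 16 Müller identity genes 1 fell, Spc25 (-0.36 ± 0.09, adjusted p = 0.0451), which lost that call in most fits (adjusted p up to 0.309), and of 9 astrocyte markers none was called.

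Of 21 resting microglia markers 7 rose (median 0.74), and of 28 genes of activated microglia and phagocytes 5 rose (median 0.58): Mmp12, Tlr2 (1.84 ± 0.40), Cd68, Lgals3, galectin-3 (1.56 ± 0.29), and Spp1. Cd68, a lysosomal protein of macrophages, was at 0.923, 1.09 and 0.826 against 3.11, 3.39 and 2.39 nRPKM (1.64 ± 0.30, adjusted p = 0.00429), and C1qb, a subunit of complement C1q, at 5.21, 5.47 and 5.12 against 11, 13.1 and 9.55 (1.09 ± 0.24, adjusted p = 0.0166). The receptor gene Csf1r, which all microglia carry, had overlapping groups at 4.10, 3.22 and 2.98 against 4.92, 4.49 and 3.94 (0.38 ± 0.19, adjusted p = 0.526), and Cx3cr1 was at 1.17, 1.13 and 1.25 against 2.58, 2.0 and 1.83 (0.86 ± 0.23, adjusted p = 0.0607). The 7 resting marker calls became 0 without crushed sample 1 or 2, 1 without any single uncrushed sample, 0 without uncrushed sample 1 and crushed sample 3 together, and 2 with the lens level as a covariate. The 5 phagocyte calls became 4 or 5 in those fits. All 21 resting markers were positive, and 19 had every crushed sample above every uncrushed one, against 8.27% of all tested genes.

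Counts of interferon, complement and chemokine genes also depended on single samples. Of 30 interferon-stimulated genes 8 rose (median 1.01), led by Gbp2, a guanylate-binding GTPase, at 0.964, 1.44 and 1.18 against 5.49, 4.66 and 3.51 nRPKM (1.91 ± 0.28, adjusted p = 0.00062). Ifit1, an RNA-binding antiviral protein, was at 0.641, 0.884 and 0.808 against 3.66, 3.53 and 2.04 (1.97 ± 0.51, adjusted p = 0.0479), with crushed sample 3 the lowest of its group as for Gbp2 and Cxcl10. The count was 8 without crushed sample 3, 1 without any other single sample, 2 without uncrushed sample 1 and crushed sample 3, and 1 with the lens covariate. In a fit of the 6 samples alone it was 13. All 30 genes were positive, and 28 had every crushed sample above every uncrushed one, against 8.27% of all tested genes. Of 16 complement genes 3 rose (C1qb, C1qc and C4b, median 0.63) and of 12 chemokine genes 3 (Cxcl10, Ccl2 and Ccl5, median 1.12). C1qb and C1qc are counted among the resting microglia markers too. The complement count was 0 without crushed sample 1 or 2 or uncrushed sample 2 or 3 (1 without uncrushed sample 1), and the chemokine count was 1 without crushed sample 1 or uncrushed sample 3. Antigen presentation genes Nlrc5, the activator of class I genes (2.06 ± 0.38), H2-Q4 (1.66, 1.66 and 1.74 against 4.84, 4.24 and 3.00; 1.26 ± 0.24) and H2-D1 (0.92 ± 0.19) rose, 3 of 17. Of 15 infiltrating leukocyte markers only 5 had enough reads to test and none was called.

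Of 23 listed cell cycle genes 4 rose and 1 fell (median 0.29), where 1.77% of all tested genes rose and 0.861% fell. The summed level of the list was 115 to 131 nRPKM in uncrushed and 114 to 117 in crushed samples. Most of that sum comes from members more abundant than the genes named next, so it says little about them. Top2a, topoisomerase II of dividing cells, was at 0.0735, 0.0252 and 0.0234 against 0.347, 0.17 and 0.203 nRPKM (2.68 ± 0.46, adjusted p = 0.00238), and Mki67, which encodes the proliferation antigen Ki-67, at 0.0228, 0.013 and 0.0267 against 0.191, 0.0718 and 0.0819 (2.47 ± 0.56, adjusted p = 0.0219). In both the highest value was that of crushed sample 1. Without that sample, or without uncrushed sample 2 or 3, 1 gene of the list was called higher, and the adjusted p of Mki67 reached 0.165. The 1 lower call of the list held without uncrushed sample 3. It was lost without any other single sample, in a fit of the 6 samples alone and with the lens covariate.

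Calls among protease and matrix protein genes stand beside 1.77% of all tested genes that rose and 0.861% that fell. Adamts1, a protease of proteoglycans, was at 4.28, 6.49 and 6.47 against 13.8, 10 and 10.4 nRPKM (0.98 ± 0.14, adjusted p = 0.00062), and Plat, tissue plasminogen activator, at 3.65, 4.35 and 5.25 against 7.92, 7.66 and 6.66 (0.74 ± 0.14). With Mmp12 they make 3 of 24 protease and inhibitor genes that rose, while Mmp9, gelatinase B, fell, at 4.45, 6.75 and 6.87 against 3.75, 3.93 and 2.48 (-0.83 ± 0.17). No gene of that list was called lower without uncrushed sample 2 or 3, or in a fit of the 6 samples alone. The number of matrix protein genes that fell, 2 of 28, was 4 without uncrushed sample 1 and 1 without crushed sample 3 or uncrushed sample 2 or 3. They were the link proteins Hapln1 and Hapln4 (-0.85 ± 0.17, lost without crushed sample 3 or uncrushed sample 2 or 3, adjusted p up to 0.0608). Of 12 metallothionein and glucocorticoid-responsive genes 2 rose, Cdkn1a and Mt2 (1.08 ± 0.27). Other genes overlap 73.5% of the exon length of Mt2, and its call was lost without any crushed sample or uncrushed sample 2 or 3 (adjusted p up to 0.21).

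Several lists held no called gene in the reported fit. These were the 22 cholesterol and lipid genes (median -0.08), 24 nuclear oxidative phosphorylation genes (-0.10), 12 endothelial and pericyte (smallest adjusted p 0.136, Vwf), 7 oligodendrocyte and Schwann cell and 5 erythroid markers. Of the cholesterol and lipid genes 3 were called lower without uncrushed sample 1, and 2 without it and crushed sample 3. All 11 pigment epithelium and choroid markers were lower in crushed samples (median -0.70), and their summed level was 357.0, 118.0 and 69.2 nRPKM in uncrushed and 98.1, 112.0 and 150 in crushed samples, so that uncrushed sample 1 alone was high. All 15 tested lens markers were lower (median -2.57), with uncrushed sample 2 the richest. The part of these tissues in the results was not tested beyond the fit with the lens covariate, in which 461 genes were called, 409 of them among the 510.

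Some called genes had a called neighbour. Of 333 genes that rose and have a position, 42 (12.6%) were next to another tested gene that rose, against 3.68% of all 17808 positioned genes, and of 160 that fell 25 (15.6%) were next to another that fell, against 1.77%. At the Pou4f1 locus on chromosome 14, the noncoding RNA D130079A08Rik (104288433 to 104459336) was at 0.177, 0.165 and 0.138 against 0.0145, 0.0279 and 0.0113 nRPKM (-3.05 ± 0.32, adjusted p = 2.55e-05). Gm35362 (-2.80 ± 0.55) lies between it and Pou4f1. On chromosome 13 the Iroquois genes Irx1 (-2.0 ± 0.43), Irx2 (-1.43 ± 0.30) and Irx4 fell, while Irx3, Irx5 and Irx6, at the other Iroquois cluster, were not called (-0.41, -0.18 and -0.48); this family was picked after its values were seen. The number of Iroquois genes that fell was 1 without crushed sample 1 or uncrushed sample 2 or 3, 2 without crushed sample 3 and 4 without uncrushed sample 1. Other neighbouring pairs were Chrnb3 with Chrna6, Sprr2g with Sprr1a, Gbp3 with Gbp2, C1qb with C1qc, Lad1 with Tnnt2 and Itgad with Cox6a2. A run of 4 genes, Ugt1a10, Ugt1a9, Ugt1a7c and Ugt1a6b, shares exons, and because strand is not marked by the kit, neighbours that overlap can share reads.

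Noncoding genes were called less often: 28 of 1936 tested long noncoding RNAs (1.45%) against 461 of 15301 protein-coding genes (3.01%). Gm20742 rose (0.122, 0.119 and 0.0609 against 0.57, 0.704 and 0.61 nRPKM; 2.66 ± 0.34), and 2600014E21Rik fell (0.112, 0.0791 and 0.125 against 0.0165, 0.0326 and 0.0192; -2.14 ± 0.34). BE949265 fell too (-0.83 ± 0.15), but not in a fit of the 6 samples alone (adjusted p = 0.0869). The lowest levels carried fewer reads, and the difference between the classes was not tested.

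The 510 genes had the same direction in the separate inhibitor retinas in nearly every case. With the inhibitor 3.29% of tested genes rose and 2.04% fell after crush. Of the 343 genes that rose with vehicle, 342 were positive there and 269 were called, and of the 167 that fell, 166 were negative and 144 were called. Their median log2 changes were 0.74 and -0.75 with the inhibitor, beside 0.93 and -0.86 with vehicle. The genes were chosen by their vehicle values, which by itself can make the vehicle medians the larger ones. Both comparisons use different retinas. A test of the difference of the crush effects called 2 genes, 0.0103% of those tested: Gm13889, at 10.5, 14.8 and 17.1 against 64.9, 69.2 and 58.7 nRPKM with vehicle (2.18 ± 0.14; 0.83 with the inhibitor), and Adcyap1, the neuropeptide PACAP, at 0.509, 0.786 and 0.703 against 3.00, 2.49 and 2.55 (1.99 ± 0.15; 0.75 with the inhibitor). An unadjusted p of at most 0.05 was found for 298 genes, 1.54% of those tested. A threshold of 0.05 passes a larger share on average where nothing differs, so this count shows no further differences. Other pairs of values, such as -1.45 against -0.33 for Pou4f1 or 1.97 against 0.58 for Chac1, were not called as different.

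The number and balance of calls depended on single libraries. Without crushed sample 1, 276 genes were called, without uncrushed sample 2, 279, and without uncrushed sample 3, 318. Without uncrushed sample 1 there were 506, of which 248 were higher and 258 lower, and without crushed sample 2, 226 were higher and 165 lower. Fitting the 6 samples alone called 281, of which 80.8% were higher against 67.3% in all. Of the 510 genes 222 (152 higher, 70 lower) were called in every fit that left out 1 of the 6 samples, and no called gene reversed its sign in any fit.

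The counts also depended on whether libraries were paired. The titles carry library numbers that run in neighbouring crushed and uncrushed pairs, and the labels do not say what the numbers mark. Deviations from the group means correlated within the 3 vehicle pairs at 0.128, 0.41 and 0.251 over all tested genes, and uncrushed sample 1 and crushed sample 3 form the pair at 0.41. A fit with neighbouring numbers as a replicate block, chosen after seeing the data, called 1234 genes, 738 higher and 496 lower, among them 509 of the 510. In that fit 20 interferon-stimulated genes rose in place of 8, 14 resting microglia markers in place of 7, 10 phagocyte genes in place of 5, 7 antigen presentation genes in place of 3 and 23 injury transcription factors in place of 15. Those that fell were 11 axon cytoskeleton and transport genes in place of 4, 7 sodium and calcium channel genes in place of 2, 8 potassium and HCN channel genes in place of 4, 7 neurotransmitter receptor genes in place of 4, 7 synaptic vesicle genes in place of 2 and 12 calcium buffer and synuclein genes in place of 6. Lists with no call in the reported fit gained some: 4 adhesion and guidance genes were called higher and 1 lower, 3 cholesterol and lipid genes were lower, and Calb1 (-0.40, adjusted p = 0.00129) and Vwf (0.49, adjusted p = 0.0357) were called. None of the 109 genes named by rule lost its call.

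**Figure D5:**
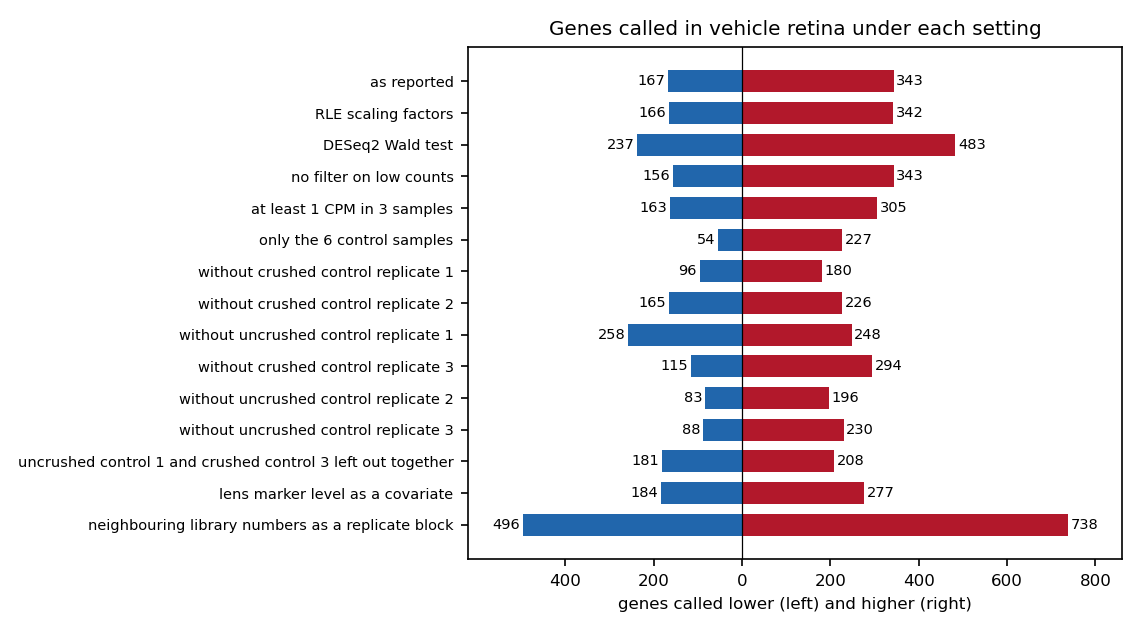
Number of genes called lower (blue, to the left) and higher (red, to the right) after crush with vehicle in the reported fit (167 and 343) and under each alternative. The bars shrink most when crushed sample 1 or uncrushed sample 2 is left out or only the 6 vehicle samples are fitted, and are longest with neighbouring library numbers as a block (496 and 738).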

How the data were processed

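Whole retina RNA was sequenced, and the deposited tables hold a count per Entrez gene and library and an nRPKM value, an RPKM made by the authors and scaled by 1 factor per library. Per the submitters' processing notes the reads were aligned with GSNAP to GRCm38, with an annotation release not given in the sources used here. Of 36528 gene IDs, 31049 were given a symbol, and IDs with no symbol took 1.123% to 1.216% of reads.

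Counts of all 16 libraries were fitted in 1 model with a mean per group (edgeR 4.0.16 in R 4.3.3, TMM factors, quasi-likelihood F test, Benjamini-Hochberg adjustment over 19391 genes). Groups follow the labels, and no library was dropped. The procedure was tested on simulated data. Alternatives were RLE factors, DESeq2 1.42.0, other filters, the 6 samples alone, each sample left out, uncrushed sample 1 and crushed sample 3 left out together, and a lens covariate. List counts under these settings, and a fit with neighbouring library numbers as a replicate block, were added after seeing the data. Depth of 22.35 to 38.63 M reads gave a median SE of 0.41 below 1 CPM and 0.09 from 100 CPM. Intervals cover counting error only.

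The comparison and the 44 gene lists were chosen with earlier results of these data known. A gene can stand in several lists, so the list counts are not independent of each other. Named genes were the 15 largest changes each way at 1 CPM or more, the 5 most abundant called genes each way, up to 3 called members per list (or the 1 with the smallest p) and 3 noncoding genes or gene models each way. Further list members, genes with at most 3 reads, neighbouring genes and the epidermal, muscle, keratin and Iroquois genes were named after their values were seen. A few members counted in the lists are not reported here by name.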

Additional observations from a re-analysis of the deposited data

Results flagged for a closer look

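The crush effect differed between vehicle and inhibitor retinas, by a test of the difference itself, for 2 genes. Gm13889 had a larger increase with vehicle, by 1.35 ± 0.17 on the log2 scale (SE; edgeR quasi-likelihood test, adjusted p = 0.00551). Adcyap1 had a larger increase with vehicle, by 1.24 ± 0.19 (adjusted p = 0.0454).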

How the results depend on the processing

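With the 6 samples alone, 281 genes were called, 227 higher and 54 lower. Leaving out 1 sample at a time gave 276 to 506 called genes, 180 to 294 higher and 83 to 258 lower, and leaving out uncrushed sample 1 and crushed sample 3 together gave 208 higher. DESeq2 called 720 genes, and RLE factors called 508. The difference from the inhibitor effect was called for 5 genes by DESeq2, for 1 to 2 with 1 sample left out, for 1 with the pair left out and for 1 with the lens covariate. Signs turned for 3 uncalled genes: Lrat (-0.86) ran from -1.35 to 0.18 with 1 sample left out (highest without uncrushed sample 1) and became 0.13 without the pair, Mylpf (0.13) ran from -0.02 (without crushed sample 2) to 0.25, and Hbb-bs (-0.24) from -0.49 to 0.10 (0.09 without crushed sample 1, 0.10 without uncrushed sample 1). In the 200 bases before the start, promoter shares were 3.85% (all genes) and 8.59% (genes that rose) for AP-1, 2.19% (all) for CRE, 1.77% (all) for ATF4-CEBP, 4.63% (all), 7.36% (rose) and 5.62% (fell) for STAT, 4.55% (all) for ISRE, and 5.51% (all) and 6.13% (rose) for TATA. The causes of these shifts were not tested, beyond fewer samples or bases. Of 109 named genes, 87 to 101 kept their side of the threshold with 1 sample left out. The labels give no replicate numbers, but titles carry neighbouring library numbers of unstated meaning. With these as a replicate block, added after seeing the data, 1234 genes were called, 738 higher and 496 lower, and of 109 named genes 101 kept their side of the threshold and 8 gained a call. Same-pair deviations correlated at 0.02 to 0.41, over 0.1 in 6 of 8 pairs and in all 3 vehicle pairs, and in 7 of 8 pairs both samples correlated best with each other, a hint from the data and not from the design. Depth limits genes below 1 CPM most.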
